A study of Mus musculus with 6 samples.

Results

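The clustered protocadherins are a family of neuronal cell surface cadherins encoded side by side in an alpha, a beta and a gamma subcluster. They were examined in 6 one-colour Agilent arrays of isolated mouse acinar cells. The members are the genes of RefSeq named Pcdha, Pcdhac, Pcdhb, Pcdhga, Pcdhgb or Pcdhgc with a number, found among the named probes of the array. Of 58 such genes, 35 had a probe. They were carried by 37 of the 56605 different probes, 8 for 7 of 14 alpha genes, 22 for all 22 beta genes and 7 for 6 of 22 gamma genes. The other 23 genes, 7 alpha and 16 gamma, were not analysed here.

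The 3 KCS samples came from pancreata carrying Ptf1aCre and Setdb1flox/flox. The 3 KC samples carried the same Cre without the floxed Setdb1, and the groups were otherwise labelled with the same genotype. All were labelled as acinar cells on the C57BL/6 background, and no age or treatment is given in the sources used here. Cre was thus driven by Ptf1a, a transcription factor gene of pancreatic progenitor and acinar cells. The labels do not say whether the replicates were separate animals, so p-values measure the spread between these samples only.

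Clustered protocadherins are best known from neurons. Each neuron uses a small, partly random selection of them, and the proteins bind identical partners on touching membranes, which lets a neuron tell its own branches from those of others. Each alpha and gamma protein is made from a variable exon of its own, with its own promoter, joined to constant exons that all genes of the subcluster share. Beta genes are single exons with no shared constant part. CTCF and cohesin help to pick the promoters in use, and DNA methylation, SMCHD1 and the histone H3 lysine 9 methyltransferase SETDB1 are among the factors known to act on the cluster's silencing or folding in other mouse tissues.

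The probe set and its positions limit what can be told apart. Where a probe lies on its transcript was not used here. A probe in a constant exon would therefore read a whole subcluster under the name of a single gene, and beta genes are similar enough that probes may also bind a paralog. Levels of different probes are not set against each other.

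The arrays of the groups differed as a whole. A probe counts as well above background on an array where the extraction program marks it so. Between 35366 and 35920 probes were well above background on KCS arrays, against 26550 to 27237 on KC arrays. The 75th percentile of signal was 347 to 423 scanner units in KCS samples, against 61.2 to 68.6 units in KC samples. The 100 brightest probes held 13.4% to 14.6% of signal in KCS samples and 34.4% to 37.4% in KC samples. Levels are given as log2 signal minus the array's 75th percentile, the scaled log2 level, and the mean of that percentile was 2.56 higher in KCS on the log2 scale. The lowest scaled log2 level well above background was -5.41, -5.41 and -5.23 on KCS arrays, against -3.09, -3.09 and -2.92 on KC arrays. A probe between those levels could be seen in KCS samples only. Of 27102 genes or unnamed probes tested with limma, 16345 passed an adjusted p of 0.05, 7016 higher and 9329 lower in KCS. The median log2 fold change of all of them was -0.19.

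Of the 20 clustered protocadherin probes seen on all 3 KCS arrays, 14 were of beta genes. These were 14 of all 22 beta probes, against 1, Pcdhb12, on all 3 KC arrays. Over all probes of the array 58.5% were on all 3 KCS and 43.3% on all 3 KC arrays, so the KCS count lay near the share of all probes and the KC count well below it. Among the beta probes, 12 were above background on 3 KCS arrays and on no KC array, where 10.2% of all probes did the same. Because KC arrays could not see the lowest of these levels, a stricter count asks for a KCS mean above what KC arrays could have shown. That count held 10 of 22 beta probes, against 3.83% of all probes. Another 3 beta probes were seen on 1 or 2 KCS arrays and on no KC array, and 5 (Pcdhb2, Pcdhb5, Pcdhb8, Pcdhb11 and Pcdhb19) on no array, where 30.4% of all probes lay. No member was seen in KC samples and missed in KCS samples, and 0.405% of all probes were seen on 3 KC and 0 KCS arrays.

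**Figure D1:**
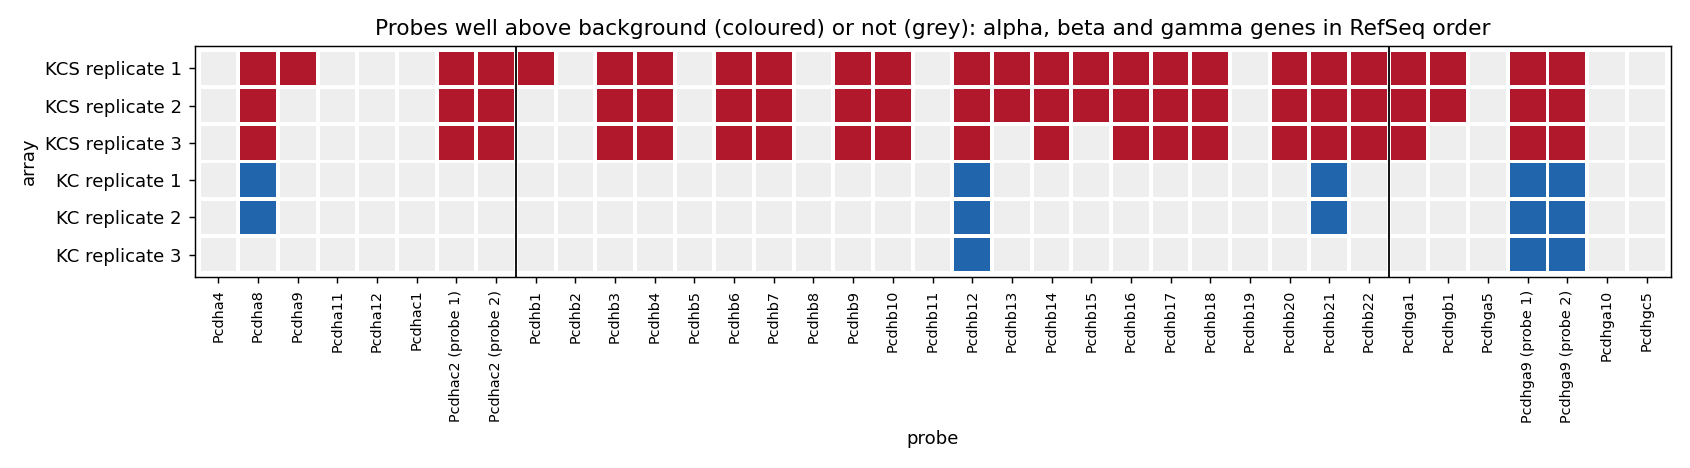
Detection of the 37 clustered protocadherin probes (columns, in the order of the genes within the alpha, beta and gamma subclusters, set apart by lines) on the 6 arrays (rows, KCS above KC), coloured where a probe was well above background and grey where it was not. Beta genes hold 22 of the 37 columns, and 14 of the 20 columns coloured on all 3 KCS arrays. Among the KC rows Pcdhb12 and both Pcdhga9 probes alone are coloured on all 3 arrays.

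Of the 14 beta genes that passed the filter on dim probes, 13 were called higher in KCS and Pcdhb12 lower. For 2 of the 13, Pcdhb9 and Pcdhb10, the KCS mean lay below what KC arrays could have shown. Of all rows tested, 60.3% were called, 25.9% higher and 34.4% lower in KCS. For each of the 13, every KCS sample lay above every KC sample, as in 29.8% of all rows, and for Pcdhb12 below, as in 38.4%. The filter lets a gene in through KCS samples alone, and 12 of the 13 were on no KC array. Those entered on their KCS signal, which favours a call of higher without fixing it. Of all tested rows on no KC array, 46.8% were called higher. The fitted median of the 14 on the log2 scale was 3.05, but it takes KC values at background as measured. With the 12 genes on no KC array at their bound (or at 0 where no fold can be given), it was 1.41, and it describes only the genes that passed the filter. The other 8 beta genes were not tested.

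Pcdhb21 was the beta gene that rose with KC arrays also above background. Its scaled log2 levels were 0.52, 0.61 and 0.30 in KCS samples, against -2.66, -2.65 and -2.81 in KC samples. In scanner units this was 563, 645 and 426 in KCS samples, against 10.5, 10.9 and 8.74 in KC samples, and 2 of the KC arrays passed background. All KCS samples lay far above all KC samples, with means of 0.47 ± 0.16 in KCS and -2.71 ± 0.09 in KC (SD, n = 3 each). Pcdhb21 rose by 3.18 ± 0.17 on the log2 scale (standard error, limma adjusted p = 8.75e-05). The difference was 3.18 on the first slide, which held replicate 1 of each group, and 3.18 on the second, which held the others.

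Pcdhb17 reached scaled log2 levels of 0.23, -0.11 and -0.58 in KCS samples, against -3.16, -4.08 and -4.07 in KC samples, none of them above background. Those levels were 461, 393 and 232 scanner units in KCS samples, against 7.46, 4.04 and 3.63 units in KC samples. Since a dim KC probe gives only an upper limit, Pcdhb17 was at least 7.37-fold higher in KCS (limma adjusted p = 3.11e-04). Such bounds set the KCS mean against, for each KC array, the lowest signal well above background or the probe's own value if higher. The p beside a bound, here and below, is of the fit with KC values as measured, and does not test the bound. The groups did not overlap, and the KC values themselves are at background and have no order.

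Pcdhb22 gave 233, 342 and 198 units in KCS samples, against 3.88, 4.84 and 2.72 units in KC samples. It was at least 5.32-fold higher in KCS (limma adjusted p = 1.47e-04). Pcdhb20 gave 253, 257 and 178 units in KCS samples, against 4.12, 2.93 and 8.93 units in KC samples, which put KCS at least 4.64-fold above KC (adjusted p = 0.00164). Both sets of KCS values lay clear of the KC background.

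Pcdhb6 and Pcdhb16 stood at like fold bounds. Pcdhb6 gave 206, 213 and 139 units in KCS samples, against 4.80, 1.91 and 1.96 units in KC samples, at least 3.87-fold higher in KCS (limma adjusted p = 4.80e-04). Pcdhb16 gave 206, 222 and 128 units in KCS samples, against 1.71, 2.33 and 1.90 units in KC samples, and KCS was at least 3.82-fold above KC (adjusted p = 9.32e-05). In each case the groups did not overlap.

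Pcdhb14 gave 192, 160 and 82.8 units in KCS samples, against 1.68, 6.66 and 1.85 units in KC samples, at least 2.90-fold higher in KCS (limma adjusted p = 0.00361). Pcdhb7 gave 135, 154 and 73.8 units in KCS samples, against 2.26, 2.37 and 1.63 units in KC samples, and KCS was at least 2.44-fold above KC (adjusted p = 2.05e-04). Pcdhb18 gave 130, 119 and 66.3 units in KCS samples, against 1.71, 2.87 and 1.86 units in KC samples, and KCS was at least 2.14-fold above KC (adjusted p = 3.29e-04). For all 3 genes KCS replicate 3 was the lowest of the KCS samples and still stood above every KC sample.

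On the second slide alone, 11 beta genes were called higher, as were 21.0% of all rows. The dimmest beta genes called higher lay close to or below what KC arrays could have shown. Pcdhb3 gave 86.1, 67.6 and 43.2 units in KCS samples, against 1.64, 1.70 and 1.73 units in KC samples. Pcdhb3 was at least 1.34-fold and Pcdhb4 at least 1.04-fold higher in KCS, with limma adjusted p of 2.95e-04 and 0.0120. Pcdhb4 gave 73.7, 73.9 and 22.0 units in KCS samples, against 1.58, 3.30 and 1.68 units in KC samples, and on the second slide alone its adjusted p was 0.086. Pcdhb9 (18.1, 18.2 and 16.1 units in KCS, against 1.85, 1.96 and 2.01 in KC) and Pcdhb10 (81.9, 37.5 and 18.6 in KCS, against 1.85, 1.96 and 1.99 in KC) passed the test but allow no fold. Their limma adjusted p were 0.0193 for Pcdhb9 and 0.0187 for Pcdhb10. Pcdhb9 missed the threshold with limma's trend and robust options (adjusted p = 0.120), on the second slide alone (0.104), and without KCS replicate 1, 2 or 3 or KC replicate 1 (0.053 to 0.057). Pcdhb10 missed it without KC replicate 2 (0.054).

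**Figure D2:**
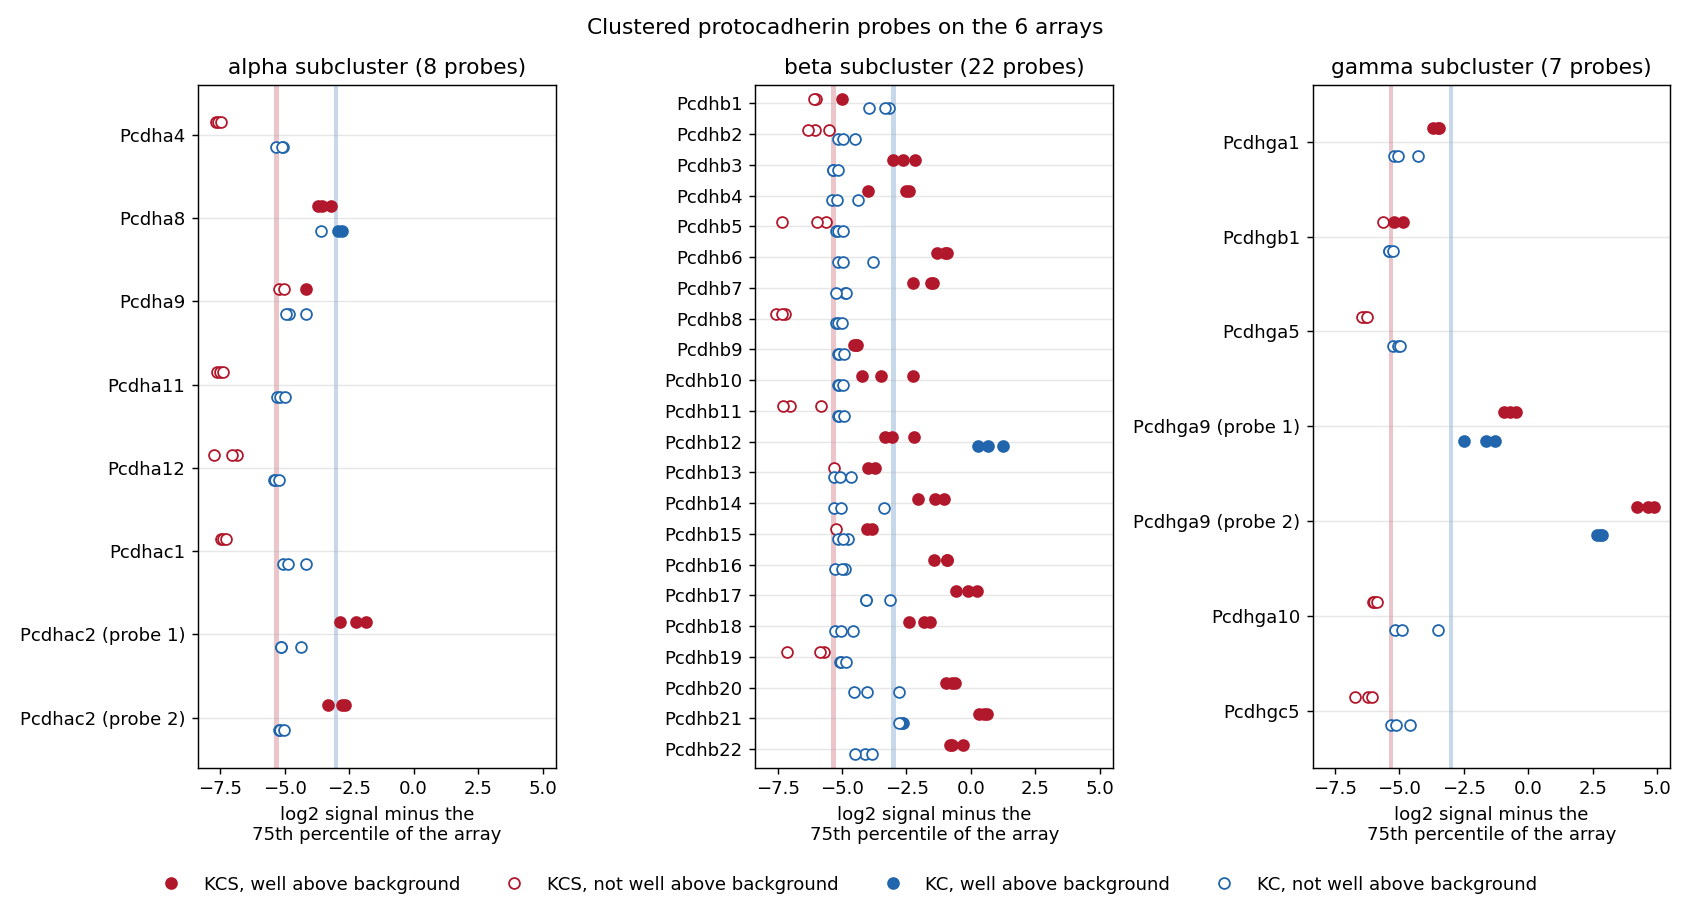
Scaled log2 level (log2 signal minus the array's 75th percentile) of every clustered protocadherin probe, KCS above KC in each row, 1 point per array. Filled points were well above background, and the shaded bands mark the lowest level well above background on KCS arrays (red, -5.41 to -5.23) and KC arrays (blue, -3.09 to -2.92). All KCS points of Pcdhb6, Pcdhb7, Pcdhb14, Pcdhb16, Pcdhb17, Pcdhb18, Pcdhb20, Pcdhb21 and Pcdhb22 lie right of the blue band, and Pcdhb12 has its KC points there.

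Pcdhb12 was the exception among the beta genes that passed the filter. Its scaled log2 levels were -2.22, -3.05 and -3.32 in KCS samples, against 1.22, 0.66 and 0.29 in KC samples, and all 6 arrays were above background. The groups did not overlap, with means of -2.86 ± 0.57 in KCS and 0.72 ± 0.47 in KC (SD, n = 3 each). Pcdhb12 fell by 3.59 on the log2 scale, with a standard error of 0.37 (limma adjusted p = 4.20e-04). The difference was -3.44 on the first slide and -3.66 on the second. In scanner units the gap was smaller, 84.3, 50.9 and 34.8 in KCS samples, against 156, 109 and 74.5 in KC samples, and here the groups overlapped. With arrays scaled to their spike-in controls the difference was -0.69 and did not pass the test (adjusted p = 0.200).

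KCS replicate 3 was the lowest KCS sample for 12 of the 13 beta genes called higher. Their median scaled log2 level was -1.03, -1.40 and -2.07 in KCS replicates 1 to 3, against -5.17, -4.58 and -4.97 in KC replicates 1 to 3. KCS replicate 3 was also the KCS sample with the highest signal of acinar markers, with a summed linear scaled level of 2776, against 3.92 and 20.3 in KCS replicates 1 and 2. Whether that bears on its beta levels was not tested. Leaving out any array left 12 or 13 beta genes higher and Pcdhb12 lower. Those fits called 21.1% to 24.3% of all rows higher and 28.4% to 33.0% lower.

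The 3 beta genes seen on 1 or 2 KCS arrays did not pass the filter on dim probes and were not tested with it. Pcdhb13 gave 30.1, 26.3 and 8.84 units in KCS samples, against 1.67, 2.71 and 1.79 units in KC samples. Pcdhb15 gave 23.8, 29.4 and 9.23 units in KCS samples, against 2.44, 1.93 and 1.98 units in KC samples. Both were missed in KCS replicate 3 and seen in the other KCS samples. On the scaled log2 scale the groups overlapped for both, with differences of 0.69 for Pcdhb13 and 0.58 for Pcdhb15. Pcdhb1 passed background in KCS replicate 1 only. It gave 12.2, 6.55 and 5.17 units in KCS samples, against 7.41, 6.76 and 3.99 units in KC samples. On the scaled log2 scale it lay at -5.01, -6.01 and -6.07 in KCS samples, against -3.17, -3.34 and -3.94 in KC samples. No KC value was above background, so the scaled difference of -2.21 is not a measured fold. Without the filter on dim probes Pcdhb1 was called lower (limma adjusted p = 0.00236), as were 53.5% of all rows.

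Signal was spread along the whole beta subcluster. Of the genes numbered 1 to 11, 6 were on 3 KCS arrays, 6 were called higher and 4 were on no array. Of those numbered 12 to 22, 8 were on 3 KCS arrays, 7 were called higher and 1 was on no array. Over all probes, 58.5% were on 3 KCS arrays and 30.4% on no array, and 25.9% of all tested rows were called higher. All genes with bounds above 3-fold other than Pcdhb6 belonged to the second set, which is a description of these probes only.

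**Figure D3:**
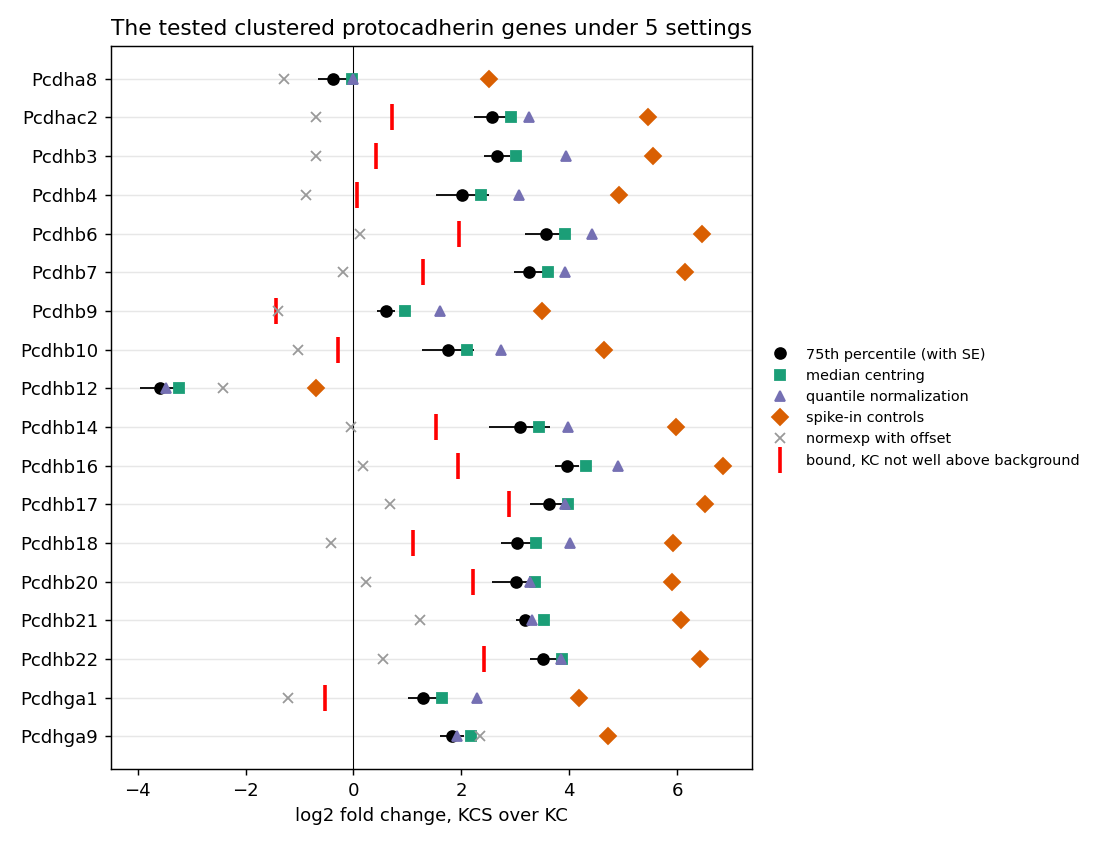
Log2 fold change of KCS over KC for the 18 tested clustered protocadherin genes with 75th percentile scaling (circles, with standard error) and under 4 other settings, and, as red ticks, the log2 of the bound for genes on no KC array (a tick left of 0 gives no fold). With 75th percentile scaling the beta genes lie between 0.60 and 3.96 apart from Pcdhb12 at -3.59, and the normexp crosses lie left of the circles for most genes.

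Most alpha genes were hardly detected. Of 8 alpha probes, 3 were on all 3 KCS arrays and none on all 3 KC arrays, and 4 probes (Pcdha4, Pcdha11, Pcdha12 and Pcdhac1) were on no array. Of the 2 alpha genes tested, Pcdhac2 rose and Pcdha8 did not pass the test. The share of all rows called higher was 25.9%, and 46.8% among tested rows on no KC array, as Pcdhac2 was.

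Pcdhac2, the alpha subcluster's last variable exon and in neurons used more uniformly than the numbered alpha genes, had both of its probes on 3 KCS arrays and on no KC array. The brighter probe (probe 1 in the plot of levels) gave 84.1, 117 and 48.0 units in KCS samples, against 1.91, 1.95 and 2.96 units in KC samples, at least 1.65-fold higher in KCS (limma adjusted p = 0.00103). The other gave 57.4, 67.7 and 34.8 units in KCS samples, against 1.77, 1.89 and 1.89 units in KC samples, and KCS was at least 1.09-fold above KC (adjusted p = 3.86e-04 with every probe as a row of its own). Both probes placed all KCS samples above all KC samples.

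Pcdha8 showed no difference that passed. Its scaled log2 levels were -3.20, -3.54 and -3.70 in KCS samples, against -2.78, -2.93 and -3.59 in KC samples, and the groups overlapped. Its difference was -0.38 ± 0.27 (standard error, limma adjusted p = 0.265), and with spike-in scaling it turned to 2.52. Pcdha9 was above background only in KCS replicate 1, at 21.7 units, and the other KCS samples gave 11.3 and 10.8 units. The KC samples gave 3.74, 2.39 and 1.99 units. On the scaled log2 scale the Pcdha9 groups overlapped, with a difference of -0.16. Pcdha9 was not tested.

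Pcdhga9 was the gamma gene detected in both groups. Of 7 gamma probes, 3 were on all 3 KCS arrays and 2, both of Pcdhga9, on all 3 KC arrays. Pcdhga5, Pcdhga10 and Pcdhgc5 were on no array, and Pcdhgb1 was on 2 KCS arrays. Pcdhgb1 gave 13.6, 11.5 and 6.92 units in KCS samples, against 1.57, 1.61 and 1.61 units in KC samples. On the scaled log2 scale its groups overlapped, with a difference of 0.13. Both gamma genes tested, Pcdhga1 and Pcdhga9, were called higher, as were 25.9% of all rows. Pcdhga1 was on no KC array, where 46.8% of tested rows were called higher, and its KCS mean lay below what KC arrays could show.

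The brighter Pcdhga9 probe (probe 2 in the plot of levels) had scaled log2 levels of 4.88, 4.66 and 4.22 in KCS samples, against 2.65, 2.87 and 2.76 in KC samples. These values did not overlap, with means of 4.59 ± 0.33 in KCS and 2.76 ± 0.11 in KC (SD, n = 3 each). Pcdhga9 rose by 1.82 ± 0.22 (standard error, limma adjusted p = 7.35e-04), by 2.23 on the first slide and 1.62 on the second. The dimmer probe lay at -0.47, -0.70 and -0.93 in KCS samples, against -2.51, -1.30 and -1.65 in KC samples. It rose by 1.12 ± 0.34 (adjusted p = 0.0263 with every probe as a row of its own), by 2.04 on the first slide and 0.66 on the second. Whether the probes lie in Pcdhga9's own exon or in the gamma constant exons was not determined, so the value may belong to other gamma genes too.

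Pcdhga1, the first variable exon of the gamma subcluster, had scaled log2 levels of -3.52, -3.46 and -3.71 in KCS samples, against -4.29, -5.22 and -5.05 in KC samples. In scanner units it gave 34.2, 38.3 and 26.5 in KCS samples, against 3.40, 1.84 and 1.84 in KC samples. The KCS values were above background and the KC values were not, and the KCS mean lay below the lowest level KC arrays could show. The test passed (limma adjusted p = 0.00728) and no fold can be given.

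The 12 probes on no array were all lower in KCS on the scaled scale, by differences of -2.68 to -1.08, while in scanner units they spanned 1.85 to 9.38 in KCS samples and 1.58 to 6.11 in KC samples. A signal at background in both groups takes on the difference of the 75th percentiles, 2.56 on the log2 scale. Without the filter on dim probes, 13 of the 35 genes would be called lower, 11 of them on no array, and 16 higher. Over all rows, 53.5% would then be called lower and 15.4% higher. For genes on no KC array, the bounds given above are therefore read in place of the fitted differences. They are approximate, and hold for this scaling and background correction only.

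The result also depends on the scaling. The 13 beta genes called higher were also called higher after centring on the median, after quantile normalization and after spike-in scaling. These settings called 33.8%, 29.2% and 87.2% of all rows higher, and moved the median of all rows to 0.16, -0.01 and 2.70. The median signal was also used in place of the processed signal, with background corrected anew by normexp at an offset of 50 units. Then 3 beta genes were higher and 6 lower, where 24.9% of all rows were called higher and 55.0% lower. Signal, correction and offset changed together there, and the cause of the lost calls was not tested.

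Other protocadherins and related cadherins were called in both directions, as were rows in general, of which 25.9% were called higher and 34.4% lower in KCS. Of 27 non-clustered protocadherins and atypical cadherins, 19 were tested, and 7 rose, 6 fell and 6 did not pass, with a fitted median of 0.40, or 0 with the 4 genes on no KC array at their bounds. The seven-pass cadherin Celsr2 fell by 4.69 ± 0.22 and Pcdh20, above background on 1 of the 3 KCS arrays, had a fitted difference of -2.80 ± 0.23, while the giant cadherin Fat1 rose by 2.06 ± 0.21 and Fat2 fell by 1.84 ± 0.22 (log2, standard error, limma adjusted p of 7.14e-05, 2.02e-04, 3.94e-04 and 7.43e-04). Of 22 classical and type II cadherins, 15 were tested, 7 were called higher, 6 lower and 2 did not pass, with a median of 0.19. Among the 6 was Cdh22, above background on 3 KCS arrays and on no KC array, so its call rests on KC signal at background. N-cadherin, Cdh2, rose, with means of 1.33 ± 0.40 in KCS and -0.67 ± 0.10 in KC (SD, n = 3 each, limma adjusted p = 7.36e-04). P-cadherin, Cdh3, had a KCS level at least 2.11-fold that of KC (adjusted p = 1.57e-04). With spike-in scaling Pcdh20 turned to 0.10 and Fat2 to 1.05, and with normexp Cdh3 turned to -0.30.

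Genes that act with or on the clustered protocadherins were called in both directions. Of 23 tested genes for processing and signalling partners, 15 rose, 3 fell and 5 did not pass, where 25.9% of all rows were called higher and 34.4% lower, and their median was 0.85. Cyfip1, a subunit of the WAVE actin complex that protocadherin tails can bind, rose by 1.63 ± 0.17, and its relative Cyfip2 fell by 2.65 ± 0.35 (limma adjusted p of 4.65e-04 and 9.96e-04). Marcks, an actin and membrane binding protein in the gamma pathway, rose by 1.60 ± 0.20 (adjusted p = 8.57e-04). Psen2, a subunit of the gamma-secretase that can cut these proteins, fell by 1.38 ± 0.16 (adjusted p = 6.57e-04). With spike-in scaling Psen2 turned to 1.52 and Cyfip2 to 0.25.

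Of 33 tested regulators of the cluster, 11 rose, 5 fell and 17 did not pass, where 25.9% of all rows were called higher and 34.4% lower. Their median was 0.25. Setdb1 itself had scaled log2 means of -0.43 ± 0.14 in KCS and -0.76 ± 0.39 in KC (SD, n = 3 each), a difference of 0.33 ± 0.24 (standard error, limma adjusted p = 0.270). Where its probe lies relative to the deleted exons was not determined, so this value does not check the labels. Smchd1 averaged 3.02 ± 0.10 in KCS and 1.80 ± 0.13 in KC (SD, n = 3 each) and rose by 1.22 ± 0.17 (adjusted p = 0.00126). The maintenance DNA methyltransferase Dnmt1 rose by 1.47 ± 0.20 and the neuronal gene repressor Rest by 1.81 ± 0.18, while the DNA demethylase Tet1 fell by 1.98 ± 0.23 (adjusted p of 0.00113, 4.01e-04 and 6.33e-04). Ctcf (0.34 ± 0.16), the SETDB1 partner Trim28 (0.18 ± 0.19) and the de novo DNA methyltransferase Dnmt3b (-0.11 ± 0.36) did not pass (adjusted p of 0.114, 0.436 and 0.812). With spike-in scaling Tet1 turned to 0.92.

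Most of the tested genes around the cluster did not pass the test. Within the cluster lie the transcription factor subunit gene Taf7 and the mitochondrial carrier gene Slc25a2. Taf7 averaged -2.87 ± 0.24 in KCS and -2.62 ± 0.14 in KC, and Slc25a2 averaged -4.70 ± 0.35 in KCS and -4.39 ± 0.36 in KC (SD, n = 3 each). Neither passed (limma adjusted p of 0.304 and 0.356), and Slc25a2 was on no KC array. Of the 26 tested neighbours, those within the cluster and the 12 protein-coding genes on either side, 6 rose, 4 fell and 16 did not pass, where 25.9% of all rows were called higher and 34.4% lower, and their median was -0.17. Cd14, a monocyte and macrophage surface receptor, rose by 4.18 ± 0.26, and Gnpda1, Arap3 and Rell2 changed by 1.56 ± 0.20, 1.64 ± 0.26 and -1.26 ± 0.21 (adjusted p of 1.08e-04, 9.88e-04, 0.00193 and 0.00249), and Rell2 turned to 1.63 with spike-in scaling.

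**Figure D4:**
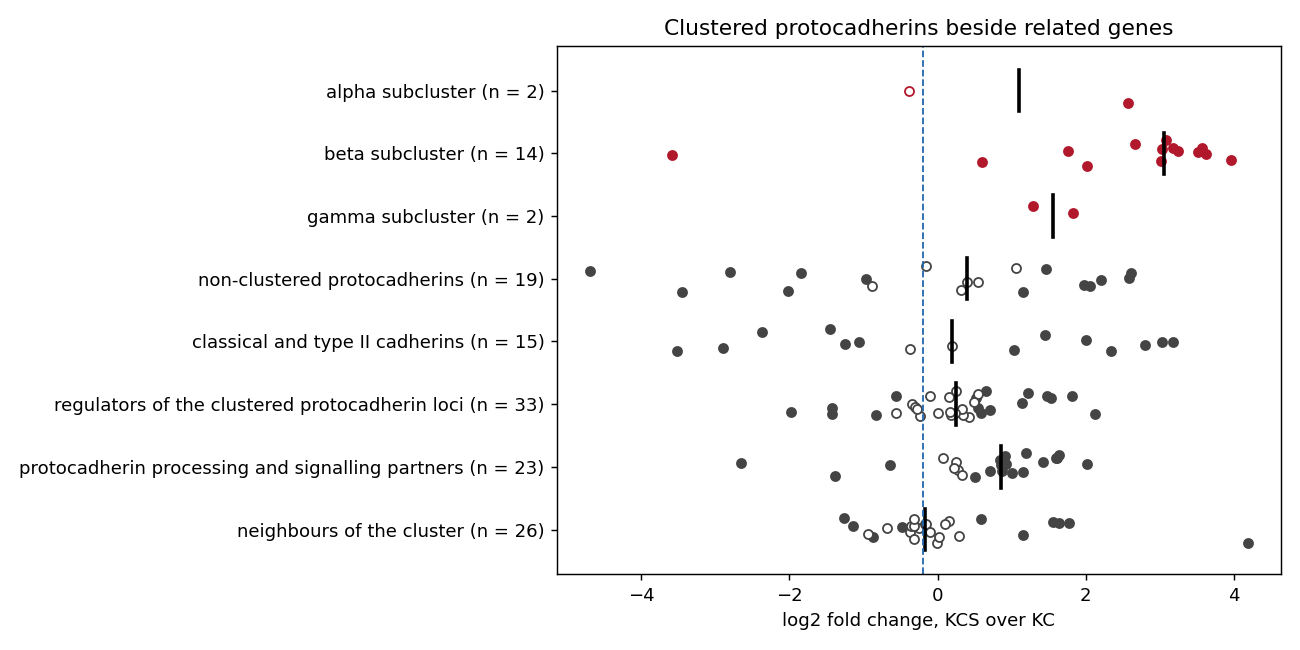
Log2 fold change of KCS over KC for each tested gene of the clustered protocadherin subclusters, related lists and neighbours, 1 point per gene (filled where limma's adjusted p passed 0.05, open where not, spread vertically only for legibility), with list medians as bars and the median of all rows, -0.19, as a dashed line. The beta points are fitted values, 12 of the 14 against KC signal at background (median 3.05, or 1.41 with those at their bounds), and are not measured folds to set against the other lists.

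The labelled cell type was checked against its markers, and markers of several cell types moved with the groups. Of all rows tested, 25.9% were called higher and 34.4% lower in KCS. All 20 acinar markers fell, with a median of -11.32, and 9, 17 and 20 of them were above background in KCS replicates 1 to 3, against 20 on every KC array. The lipase Pnlip averaged -5.45 ± 2.57 in KCS and 11.11 ± 0.08 in KC (SD, n = 3 each), a spread that KCS replicate 3 widened. In bulk samples, fewer cells of a type and less RNA per cell cannot be told apart. Fibroblast and stellate cell genes rose for 19 of 21, none of the 21 fell, and their median was 3.11, with summed linear scaled levels of 2189 to 2726 in KCS samples, against 578 to 719 in KC samples. Of 15 macrophage markers, 13 rose and none fell, with a median of 3.89 and sums of 504 to 666 in KCS samples, against 70.9 to 95.5 in KC samples. Of 14 endothelial markers, 11 rose and none fell, with sums of 61.5 to 125 in KCS samples, against 37.7 to 43.7 in KC samples. Of 14 ductal markers, 9 rose, 1 fell and 4 did not pass, with a median of 2.72. The part of these cells in the beta and Pcdhga9 signal was not tested.

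Markers of neural cells were called in both directions, where 25.9% of all rows were called higher and 34.4% lower. The part of neural cells in the beta signal was not tested. Of 16 neuron markers, 12 were tested, 4 rose, 3 fell and 5 did not pass, with a fitted median of -0.42 (-0.14 with the 3 on no KC array at their bounds) and summed linear scaled levels of 22.1 to 29.9 in KCS samples, against 25.3 to 53.7 in KC samples. Of the neuron markers, 4 were above background on no KCS array and 6 on no KC array. Nefl and Nefm were on no array of either group, and Elavl3 was on no KCS array. The microtubule protein gene Map2 fell by 3.46 ± 0.19 and Uchl1, a ubiquitin hydrolase of neurons, rose by 1.90 ± 0.23 (log2, standard error, limma adjusted p of 8.75e-05 and 7.60e-04). Of 12 Schwann cell markers, 9 were tested, 2 rose, 3 fell and 4 did not pass. Their sums were 20.4 to 23.3 in KCS samples, against 18.0 to 20.7 in KC samples. Gfap and Cdh19 were above background on no array of either group. The neurotrophin receptor gene Ngfr stood at least 4.52-fold above KC in KCS samples (adjusted p = 5.31e-04). Of 17 islet markers, 14 fell and none rose. Mesothelial markers, 6 tested, and lymphocyte markers, 10 tested, split at 2 and 4 higher with 1 and 3 lower.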

How the data were processed

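Total RNA of isolated acinar cells was amplified, labelled with Cy3 and hybridised to 1 array per sample, per the labels' protocols. Each deposited scanner file holds the processed signal, an intensity in scanner units already background-corrected by Agilent Feature Extraction 12.0.3.1, per the file headers. Of 62976 spots, 3671 were controls. No spot was saturated, and 88 to 140 outlier spots per array were left out. The series' own table, as deposited, gives the authors' log2 values for 36136 probes, and its 36110 non-control rows matched the scaled scanner values centred per probe (r of 0.9999993 or above, across probes). Its column medians were -0.05, -0.03 and -0.04 in KCS replicates 1 to 3, and -0.01, 0.05 and 0.10 in KC replicates 1 to 3.

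From the processed signal, log2 minus each array's 75th percentile over non-control probes was computed. Probes were named through accessions in RefSeq of GRCm38.p6, with 33767 of them named, and each gene was read from its brightest probe by mean. Rows well above background on at least 3 of 6 arrays were tested with limma 3.58.1 in R 4.3.3 (lmFit and eBayes, two-sided, no covariates, Benjamini-Hochberg adjustment over all 27102 rows, threshold 0.05). Tables and plots were made with Python 3.11.15. In simulated data with the spread of these rows, 50 of 27102 rows were changed at each size. Of those changed by 1, 2 and 4 on the log2 scale, 6%, 64% and 86% were recovered. In the real data 60.3% of rows were called, which makes the adjusted threshold less strict, so these shares do not carry over to it. Small differences that miss the threshold are not taken as absence of a change. Arrays give no counting depth, and their number limits the precision.

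Members and gene lists were chosen with earlier results of these data known, so no p-value is adjusted over a list and no list is tested. Values on every array are given, per subcluster, for the 6 tested members highest by mean, the 4 with the largest change and up to 8 seen on 3 arrays of only 1 group. Members added to these are named to account for the rest. Of each other list, up to 4 genes with the smallest p may be named, and Setdb1, Ctcf, Smchd1, Trim28 and Dnmt3b always. Taf7 and Slc25a2, inside the cluster, and the undetected markers were named after their values were seen. Alternatives changed the scaling, the background correction, the filter, the choice of probe, the blocks and the arrays used. An allele that both groups carry and some marker genes are not reported here.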

Additional observations from a re-analysis of the deposited data

How the results depend on the processing

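Of 362 alternative values for the 18 tested members, 339 kept direction and side of the threshold, 12 no longer passed, 1 newly passed and 10 turned. Leaving out each array in turn gave 13400 to 15283 rows called in all, with 21.1% to 24.3% of rows higher and 28.4% to 33.0% lower. It left 12 to 13 beta genes higher and 1 lower. For alpha it left 1 gene higher and 0 lower, and for gamma 2 higher and 0 lower. The replicate numbers do not show a pairing: same-numbered samples deviated together at r = 0.33, 0.04 and 0.14 (across genes). With a replicate block, 16452 rows were called, 25.4% of all rows higher and 35.4% lower, and 13 beta genes were higher and 1 was lower. Neither a replicate block nor a slide block (17225 rows) changed the call of a member. The second slide alone called 14038 rows in either direction, with 21.0% of all rows higher, and 11 beta genes higher. Of calls on all rows, 42.9% were higher, against 56.5% after median centring, 49.9% after quantile normalization, 96.8% after spike-in scaling, 31.1% after normexp, 22.3% with no filter and 36.7% with all 6 arrays above background.

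Without a filter on dim probes 31885 rows were called, and 4 alpha, 6 beta and 3 gamma genes were lower, as were 53.5% of all rows. With at least 1 array above background, 2 beta genes were lower, as were 31.5% of all rows. With all 6 arrays above background, which leaves out every gene unseen in KC, 0 alpha, 0 beta and 1 gamma genes were higher. Of all rows, 24.7% were higher there. With spike-in scaling, 2 alpha genes were higher and 0 beta genes lower, since Pcdha8 turned to 2.52 and Pcdhb12 no longer passed. That setting called 87.2% of all rows higher and 2.85% lower. Normexp was run on the median signal, chosen after seeing the data, and on the mean signal it was not run. It changed signal, background correction and offset together, and the cause of its changes was not tested. With it, 0 alpha, 3 beta and 1 gamma genes were higher, and 2 alpha, 6 beta and 1 gamma genes lower. Of all rows it called 24.9% higher and 55.0% lower. Under normexp the fitted difference turned to -0.69 for Pcdhac2, -0.69 for Pcdhb3, -0.88 for Pcdhb4, -0.20 for Pcdhb7, -1.40 for Pcdhb9, -1.03 for Pcdhb10, -0.0495 for Pcdhb14, -0.42 for Pcdhb18, -1.21 for Pcdhga1, -0.30 for Cdh3 and -0.16 for S100b. With spike-in scaling, where the median of all rows is 2.70, it turned to 0.92 for Tet1, 1.52 for Psen2, 0.25 for Cyfip2, 0.10 for Pcdh20, 1.05 for Fat2, 1.45 for Cdh22, 1.63 for Rell2, 2.64 for Taf7, 2.58 for Slc25a2, 0.78 for Pcsk2 and 2.79 for Dnmt3b. Taf7 and Slc25a2 turned to 0.10 and 0.042 with median centring and to 0.019 and 0.29 with quantile normalization. Dnmt3b, near 0, turned to 0.25 with median centring, 0.31 on the second slide alone, and 0.05 and 0.16 without KCS or KC replicate 1, its values without 1 array ranging between -0.47 and 0.16. Calls near the background signal of KC arrays are limited by that background.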
